A study of Homo sapiens with 9 samples.

Results

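The HOX cluster genes were examined in RNA sequencing of HCT116 cells, an established human colorectal carcinoma line. They were taken as the rows whose gene name is HOX, a cluster letter from A to D and a paralog number, which gave 38 of the 33861 genes in the table. The HOXA cluster had 11 genes, and the HOXB, HOXC and HOXD clusters had 9 genes each. HOXB1 was not analysed here. Control cells, labelled NC, received neither factor, and the length of their culture is not stated. Activin-treated cells received 100 ng/mL activin A for 5 days. In the activin + HGF group the same 5-day exposure to 100 ng/mL activin A was followed by 20 ng/mL hepatocyte growth factor (HGF) over 5 further days, so HGF and the added days cannot be told apart. All cells were grown in DMEM with fetal bovine serum. Each group had 3 libraries, nothing says that they came from separate cultures, and p-values therefore measure the spread between libraries of this single line.

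HOX genes encode homeodomain transcription factors that give cells their position along the head-to-tail axis of the embryo. They lie in 4 clusters, and genes of the same paralog number in different clusters descend from a common ancestor. Genes of low number are used early and toward the head, and genes of high number late and toward the tail, an order called collinearity. HOX proteins bind DNA with TALE partners such as MEIS proteins, retinoic acid and CDX factors act on the clusters in the embryo, and Polycomb complexes keep clusters silent where MLL-type complexes keep them active. The adult colon and many colorectal cancers keep a set of HOX genes in use.

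The HOXA cluster lies on the minus strand of chromosome 7. The HOXB cluster spans chr17:48540894-48728750 on the minus strand, the HOXC cluster chr12:53938831-54055327 on the plus strand and the HOXD cluster chr2:176092721-176190907 on the plus strand. The coordinates are those of the table and fit the GRCh38 build. Of the 38 genes, 32 overlap another row of the table, 21 of them on the same strand and 24 on the opposite strand, and whether the counting used strand is not stated. HOXB7 (chr17:48607232-48633572) covers HOXB8 and HOXB9 on the same strand. HOXC6 (chr12:53990624-54030823) overlaps HOXC4, HOXC8 and HOXC9 on the same strand. How reads were divided between such genes is uncertain. HOXA7 (chr7:27153716-27156675) overlaps no other row.

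The start regions of 4 HOXA genes are shown because HOXA6, HOXA7 and HOXA13 fell in activin + HGF-treated cells and HOXA9, which lies between them, did not. Each is the run of 250 bases before the RefSeq gene start (GRCh38.p14), 5′ to 3′ on the minus strand. The RefSeq start is the 5′ end of the table's row for HOXA7 and HOXA13, but lies 2.83 kb inside the row for HOXA6 and 4.2 kb inside it for HOXA9, so those 2 windows fall within the rows. They are chr7:27147775-27148024 for HOXA6, chr7:27156676-27156925 for HOXA7, chr7:27165538-27165787 for HOXA9 and chr7:27200092-27200341 for HOXA13. Capitals mark the CCAAT box, searched as CCAAT or ATTGG.
HOXA6: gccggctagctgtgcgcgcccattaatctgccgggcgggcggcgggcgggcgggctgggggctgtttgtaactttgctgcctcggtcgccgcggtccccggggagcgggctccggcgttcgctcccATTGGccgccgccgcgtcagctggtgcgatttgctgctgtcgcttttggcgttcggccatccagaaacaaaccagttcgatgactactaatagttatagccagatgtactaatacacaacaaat
HOXA7: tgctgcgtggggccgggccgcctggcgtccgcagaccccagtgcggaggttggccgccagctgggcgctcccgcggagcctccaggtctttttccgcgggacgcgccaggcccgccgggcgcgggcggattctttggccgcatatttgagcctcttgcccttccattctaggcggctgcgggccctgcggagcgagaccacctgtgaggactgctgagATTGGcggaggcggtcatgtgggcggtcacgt
HOXA9: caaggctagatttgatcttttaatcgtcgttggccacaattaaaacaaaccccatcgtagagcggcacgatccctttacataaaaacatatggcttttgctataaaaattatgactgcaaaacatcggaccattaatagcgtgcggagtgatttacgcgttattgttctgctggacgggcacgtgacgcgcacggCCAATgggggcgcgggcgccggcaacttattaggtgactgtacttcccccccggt
HOXA13: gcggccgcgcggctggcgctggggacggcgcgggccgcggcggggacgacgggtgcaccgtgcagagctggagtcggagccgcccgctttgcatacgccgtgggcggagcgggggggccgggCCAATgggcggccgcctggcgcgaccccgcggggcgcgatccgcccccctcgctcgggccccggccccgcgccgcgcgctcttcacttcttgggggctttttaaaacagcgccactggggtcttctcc

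All 4 windows held 1 CCAAT box, at 124 bases before the start in HOXA6, 32 in HOXA7, 55 in HOXA9 and 128 in HOXA13, and 32.0% of the 35116 RefSeq windows of this length held one. The HOXA13 window was 78% G or C with 40 CpG dinucleotides. HOXA7 had 70.8% and 28, HOXA6 had 62% and 27, and HOXA9 had 48.8% and 20, against a median of 58% and 11 over all windows. The homeodomain core TAAT, searched on both strands, had 4 matches in HOXA6 and 6 in HOXA9 and was not found in the other two windows, while 47.4% of all windows held it. CAGAC, a core bound by SMAD proteins, which carry the activin signal, had 1 match, in HOXA7, and 38.0% of all windows held it. TTTATG, a core bound by CDX proteins, had 1 match, in HOXA9, and 9.64% of all windows held it. RefSeq windows were given for 19 of the 38 HOX genes and for 3 of the 8 genes called in any comparison. HOXB2, HOXB7, HOXB9, HOXB13 and HOXC6 are without one.

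HCT116 cells used the middle and tail-side HOX genes most. Levels between genes are given in FPKM, fragments scaled to gene length and library depth. In control cells the highest mean levels were HOXB7 with 22.1 ± 1.33 FPKM (SD, n = 3) and HOXA9 with 19.7 ± 1.84, followed by HOXB8 with 10.6 ± 0.392, HOXB6 with 9.77 ± 1.56, HOXB9 with 8.14 ± 0.480 and HOXA7 with 7.81 ± 0.523. HOXB7 and HOXA9 were separated from HOXB8 by more than their spread, whereas HOXB8 and HOXB6 were not separated from each other. In all, 23 HOX genes reached a mean of 1 FPKM in at least one group, and they were 10 HOXA, 8 HOXB and 4 HOXC genes and 1 HOXD gene, HOXD8. Per group, 21 genes reached it in control cells, 21 in activin-treated cells and 18 in activin + HGF-treated cells. HOXB9 was the highest in activin-treated cells, at 29.3 ± 5.58 FPKM, and HOXA9 in activin + HGF-treated cells, at 20.8 ± 0.641 FPKM.

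The HOXB cluster gave the most HOX transcript in every group. Its summed level was 70.5 ± 1.28 FPKM in control cells, 67.3 ± 7.96 in activin-treated cells and 49.2 ± 12.4 in activin + HGF-treated cells (SD, n = 3). The HOXA sum was 43.3 ± 1.04, 35.1 ± 2.73 and 35.5 ± 3.49 FPKM in the same order, the HOXC sum 12.2 ± 1.14, 9.27 ± 1.38 and 8.13 ± 1.43, and the HOXD sum 1.47 ± 0.505, 3.69 ± 0.244 and 2.25 ± 1.299. FPKM is not scaled for library composition, and the median gene was 0.29 lower on the log2(FPKM + 0.1) scale in activin + HGF-treated than in control cells, so these sums are described and not tested. Activin + HGF replicate 1 had the lowest HOXB sum, 34.86 FPKM, against 57.05 and 55.62 in the other two libraries of its group.

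By paralog number, groups 7 and 9 gave the largest FPKM sums in control cells. Paralog group 7, which is HOXA7 and HOXB7, had 29.9 ± 0.818 FPKM in control cells, 14.0 ± 1.98 in activin-treated cells and 9.01 ± 2.80 in activin + HGF-treated cells. Its highest treated library, at 15.79 FPKM, lay below its lowest control library, at 29.32. Paralog group 9 had 32.6 ± 0.813, 49.3 ± 6.11 and 41.2 ± 6.19 FPKM, with every treated library above every control library. Paralog group 13 had 8.85 ± 0.390, 5.39 ± 0.584 and 3.75 ± 2.02 FPKM, and paralog group 6 had 13.3 ± 1.45, 7.93 ± 0.746 and 6.14 ± 0.502. Paralog group 12, HOXC12 and HOXD12, was at 0 in the control libraries and reached at most 0.18 FPKM.

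The libraries held 57453977 to 77016167 counts, and 3 counts correspond to at most 0.0551 CPM, counts scaled to library size. CPM values below also carry TMM factors for library composition, which ranged from 0.783 in activin + HGF replicate 1 to 1.17. Across the genes that passed the filter on low counts, libraries of a group correlated at 0.969 to 0.988 and libraries of different groups at 0.918 to 0.971 (Pearson's r of log2 CPM, a description). Activin replicate 2 and activin + HGF replicate 1 stood apart from their groups, and activin + HGF replicate 1 was the lowest of its group in 21 of the 34 HOX genes tested, against 43.3% of all tested genes. Activin replicate 2 correlated at 0.969 and 0.971 with activin + HGF replicates 2 and 3. Its values with activin replicates 1 and 3 were 0.971 and 0.970, so it lay as near to those libraries as to its own group. Without it, 2418 of 22112 genes were called between activin and activin + HGF, against 1697 of 20988 with it.

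Of the epithelial markers, EPCAM ranged from 77.2 to 133 FPKM and CDX2 from 1.57 to 5.41 FPKM, whereas CDX1, LGR5 and VIL1 stayed below 0.2 FPKM in all libraries. Of 10 listed, 8 were tested. KRT20 was called lower with activin (log2 fold change −1.63, edgeR adjusted p = 0.0203) and after both factors (log2 fold change −1.34, edgeR adjusted p = 0.0297). EPCAM was called higher after HGF (log2 fold change 1.02, edgeR adjusted p = 0.0067), so markers of this list moved in opposite directions. The EPCAM call and the KRT20 call after both factors were lost without activin + HGF replicate 1. The summed level of 10 markers of fibroblasts, blood, endothelium and liver was 2.93 to 2.95 FPKM in control, 4.76 to 6.56 in activin-treated and 3.33 to 4.24 in activin + HGF-treated libraries. CD3E, DCN, PECAM1, PTPRC and VWF stayed below 0.2 FPKM. Most of the sum was COL1A1, which was called higher with activin (log2 fold change 1.03, edgeR adjusted p = 0.00205). COL3A1 had 0.964, 2.14 and 2.63 CPM in control, 0.041, 0 and 0 in activin-treated and 0.257, 0.305 and 0.421 in activin + HGF-treated libraries, and was called lower with activin (edgeR adjusted p = 0.00111), higher after HGF (edgeR adjusted p = 0.0163) and lower after both factors (edgeR adjusted p = 0.0234). ALB had at most 1.19 CPM and was called higher after both factors (log2 fold change 2.39, edgeR adjusted p = 0.0416). The ALB and COL3A1 calls after both factors were lost without activin + HGF replicate 1. The part of these markers in the HOX results was not tested.

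The first comparison asked what 5 days of activin did. In activin-treated cells the tail-side gene HOXB9 and the head-side gene HOXB2 rose, and the middle genes HOXA7 and HOXB7 fell. A gene was called where the edgeR quasi-likelihood test gave an adjusted p (Benjamini-Hochberg, over all 20988 genes tested) under 0.05 and its log2 fold change was 1 or more in either direction. Of the 38 HOX genes, 34 passed the filter on low counts and 4 of these were called, which is 11.8% against 11.4% of all genes tested. The 2 called higher compare with 6.78% of all genes called higher and the 2 called lower with 4.62% called lower. The median log2 fold change of the 34 was −0.25, against 0.02 over all genes. HOX genes as a list were thus called at about the background share, and the results below concern single genes.

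HOXB9, a gene of the posterior trunk, had 21.5, 25.4 and 23.5 CPM in control, 69.0, 108 and 66.4 in activin-treated and 39.7, 68.1 and 68.2 in activin + HGF-treated libraries. All 6 treated libraries lay above all control libraries, and activin replicate 2 was the highest of the 9. The gene rose 3.46-fold with activin (log2 fold change 1.79 ± 0.26 SE, edgeR adjusted p = 0.00143). HOXB2, which patterns the hindbrain, had 0.555, 0.595 and 0.646 CPM in control, 1.34, 1.63 and 1.33 in activin-treated and 1.51, 2.41 and 2.14 in activin + HGF-treated libraries. It rose 2.39-fold with activin (log2 fold change 1.26 ± 0.34 SE, edgeR adjusted p = 0.0287) and stayed a low gene, at 0.573 ± 0.0153 FPKM in activin-treated cells. This call was lost without activin replicate 1 or any of the control libraries.

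HOXB7, the highest HOX gene of control cells, had 36.0, 36.4 and 40.1 CPM in control, 12.7, 21.3 and 15.8 in activin-treated and 12.2, 17.3 and 17.8 in activin + HGF-treated libraries. The control libraries were separate from the treated ones, and the 2 treated groups overlapped. It fell 2.26-fold with activin (log2 fold change −1.18 ± 0.23 SE, edgeR adjusted p = 0.00644), a call lost without activin replicate 1. HOXA7, its paralog in the HOXA cluster, had 20.7, 22.8 and 19.6 CPM in control, 8.24, 10.7 and 9.65 in activin-treated and 1.91, 5.28 and 5.72 in activin + HGF-treated libraries. These 3 groups did not overlap. HOXA7 fell 2.21-fold with activin (log2 fold change −1.14 ± 0.34 SE, edgeR adjusted p = 0.0440), a call that was lost in 11 of 18 alternative settings. When one library was left out, the call held only without activin + HGF replicate 1 or 3.

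Within the HOXB cluster, the share of HOXB7 was lower and that of HOXB9 higher in the treated cells. In control cells HOXB7 made up 31.4 ± 1.39% of the summed HOXB FPKM and HOXB9 11.5 ± 0.842% (SD, n = 3). In activin-treated cells HOXB7 made up 15.2 ± 1.17% and HOXB9 43.4 ± 3.73%, and in activin + HGF-treated cells 15.5 ± 0.433% and 33.6 ± 4.13%. These shares come from within each library and do not depend on scaling between libraries, though HOXB9 lies inside the HOXB7 row and the split of reads between them is uncertain.

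**Figure D1:**
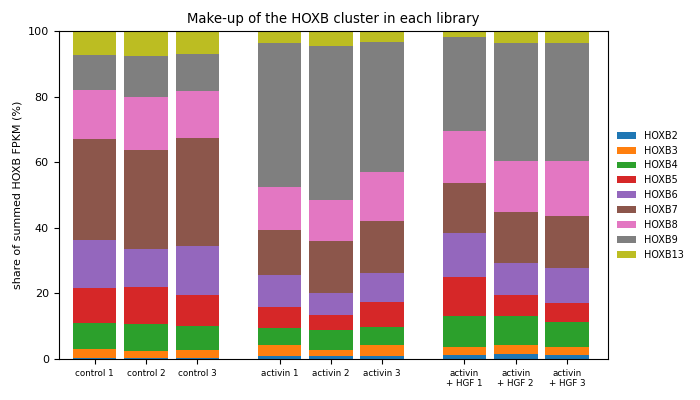
Share of each gene in the summed FPKM of the HOXB cluster, in percent, for each of the 9 libraries. HOXB7 (brown) is about 30.4% to 33.0% of the control bars, and HOXB9 (grey) grows from 10.8% to 12.5% in control to 39.5% to 46.9% in activin-treated libraries.

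HOXB5 and HOXB6, neighbours in the middle of the cluster, passed the adjusted p but not the fold threshold, as 6 of 34 HOX genes did on adjusted p alone, against 18% of all genes. HOXB5 had 16.7, 18.1 and 15.2 CPM in control, 7.67, 7.92 and 10.1 in activin-treated and 12.9, 9.92 and 9.09 in activin + HGF-treated libraries (log2 fold change with activin −0.96, edgeR adjusted p = 0.0113). HOXB6 had 29.7, 23.7 and 31.6 CPM, 15.5, 16.2 and 14.9 CPM, and 18.8, 18.2 and 19.9 CPM in the same order (log2 fold change with activin −0.87, edgeR adjusted p = 0.00714). For both genes every treated library lay below every control library. The other HOXB genes were not called with activin. HOXB8 had 27.7, 30.2 and 27.5 CPM in control, 19.3, 27.0 and 23.7 in activin-treated and 20.5, 27.8 and 29.7 in activin + HGF-treated libraries, with overlap between control and activin + HGF. HOXB4 had 12.2, 12.95 and 11.6, then 6.36, 11.1 and 7.19, then 9.90, 12.96 and 11.0 CPM, and HOXB3, whose row overlaps it, had 15.3, 13.01 and 14.9, then 15.2, 13.02 and 16.9, then 10.1, 15.2 and 13.1 CPM.

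The second comparison asked what HGF added after activin, and it gave fewer calls. HOXC6 fell, and no HOX gene was called higher. The count was 1 of 34, or 2.94%, against 8.09% of all genes tested, of which 3.87% were called higher and 4.21% lower, and the median log2 fold change was −0.15 against −0.04 over all genes. At an unadjusted p under 0.05 there were 6 HOX genes. The share of all genes at that cut was not counted, here or for the unadjusted counts below, so these counts have no background. In this comparison it is at least 12.9%, the share of all genes at an edgeR adjusted p under 0.05 alone.

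HOXC6, a trunk gene, had 7.35, 8.33 and 6.56 CPM in control, 4.10, 4.32 and 3.74 in activin-treated and 2.09, 2.15 and 1.09 in activin + HGF-treated libraries. The 3 groups did not overlap. It fell 2.28-fold between activin and activin + HGF (log2 fold change −1.19 ± 0.30 SE, edgeR adjusted p = 0.0290), and the call was lost in 6 of 18 alternatives, among them those without control replicate 3, activin replicate 1 or 3, or activin + HGF replicate 3. Its log2 fold change with activin alone was −0.87 (edgeR adjusted p = 0.0642). HOXA7 had a log2 fold change of −1.14 in this step, as large as with activin, at an adjusted p of 0.0548 by edgeR, which misses the threshold.

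HOXA9, the highest HOXA gene, had 71.4, 62.2 and 66.0 CPM in control, 48.3, 60.6 and 51.2 in activin-treated and 95.5, 83.7 and 80.9 in activin + HGF-treated libraries. Activin-treated libraries were the lowest and activin + HGF-treated libraries the highest, with no overlap. Its log2 fold change after HGF was 0.70 (edgeR adjusted p = 0.0208), under the fold threshold. Against control its log2 fold change was −0.32 with activin (edgeR adjusted p = 0.205) and 0.38 with activin + HGF (edgeR adjusted p = 0.0931). HOXA9 made up 45.5 ± 4.34% of the summed HOXA FPKM in control, 47.4 ± 2.23% in activin-treated and 59.0 ± 5.92% in activin + HGF-treated cells, while HOXA7 made up 18.0 ± 0.808%, 10.6 ± 0.735% and 3.65 ± 1.77%.

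The third comparison set activin + HGF-treated cells against control cells, and it held the most calls. HOXB2 and HOXB9 were higher than in control, and HOXA6, HOXA7, HOXA13, HOXB7, HOXB13 and HOXC6 were lower. The 8 genes are 23.5% of the 34 tested, against 21.5% of all genes tested, again about the background share. The 6 genes called lower compare with 10.2% of all genes called lower and the 2 called higher with 11.3%. The median log2 fold change was −0.24 against −0.03 over all genes. This comparison shares its control libraries with the first and its activin + HGF libraries with the second.

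**Figure D2:**
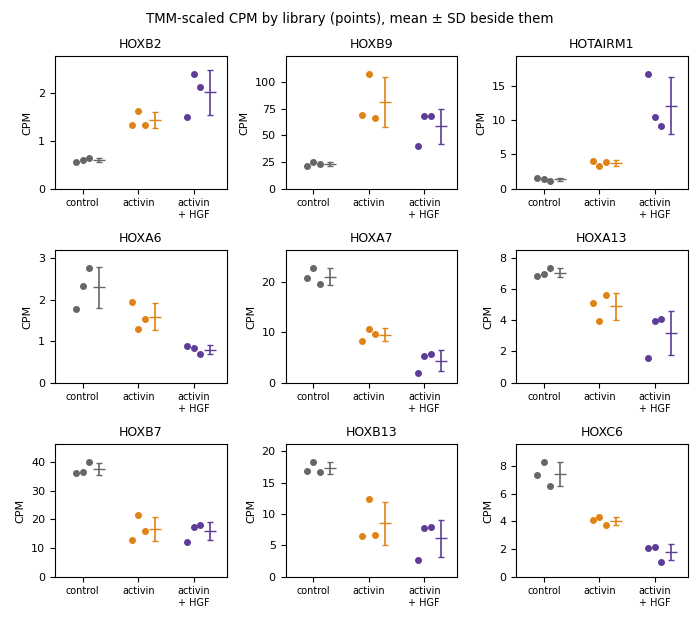
TMM-scaled CPM of the 8 called HOX genes and of HOTAIRM1 in each library (points), with the group mean ± SD (n = 3) beside them; each y axis starts at 0. HOXA7 and HOXC6 step down from control to activin to activin + HGF without overlap, and HOXB9 is highest in activin-treated cells.

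Of the genes that fell, HOXA7 had the largest change, 4.88-fold (log2 fold change −2.29 ± 0.36 SE, edgeR adjusted p = 0.00114). It went from the sixth highest HOX gene of control cells to 1.34 ± 0.718 FPKM. HOXC6 followed, 4.16-fold lower (log2 fold change −2.06 ± 0.30 SE, edgeR adjusted p = 0.000817). HOXB7 was 2.37-fold lower (log2 fold change −1.25 ± 0.23 SE, edgeR adjusted p = 0.00282), against 2.26-fold with activin alone.

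HOXA6, next to HOXA7, had 1.78, 2.33 and 2.77 CPM in control, 1.95, 1.297 and 1.53 in activin-treated and 0.882, 0.829 and 0.686 in activin + HGF-treated libraries. Control and activin overlapped, and all activin + HGF libraries lay below both. It fell 2.87-fold against control (log2 fold change −1.52 ± 0.34 SE, edgeR adjusted p = 0.00756). Some reads of HOXA6 may belong to other rows, since 2 unnamed genes on its strand and HOXA-AS3 on the other strand overlap it.

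HOXA13 and HOXB13, the tail-end genes of their clusters, specify hindgut and urogenital structures. HOXA13 had 6.83, 6.93 and 7.37 CPM in control, 5.13, 3.95 and 5.64 in activin-treated and 1.58, 3.93 and 4.09 in activin + HGF-treated libraries. It fell 2.20-fold against control (log2 fold change −1.14 ± 0.35 SE, edgeR adjusted p = 0.0299), and this call was lost without activin + HGF replicate 1, its lowest library, or without any of the control libraries. HOXB13 had 16.9, 18.4 and 16.6 CPM in control, 6.44, 12.4 and 6.61 in activin-treated and 2.66, 7.82 and 7.88 in activin + HGF-treated libraries. It fell 2.82-fold against control (log2 fold change −1.50 ± 0.40 SE, edgeR adjusted p = 0.0175) and kept its call without that library. HOXC13, of the same paralog number, had 6.01, 7.42 and 6.10 CPM, 3.72, 4.58 and 5.50 CPM, and 2.35, 6.67 and 7.66 CPM, with overlap between control and activin + HGF and no call.

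HOXB2 rose 3.36-fold against control (log2 fold change 1.75 ± 0.34 SE, edgeR adjusted p = 0.00387). HOXB9 rose 2.50-fold (log2 fold change 1.32 ± 0.26 SE, edgeR adjusted p = 0.00383). In the step from activin to activin + HGF, the log2 fold change of HOXB9 was −0.47 (edgeR adjusted p = 0.247) and that of HOXB2 was 0.49 (edgeR adjusted p = 0.354), with both steps under the threshold.

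**Figure D3:**
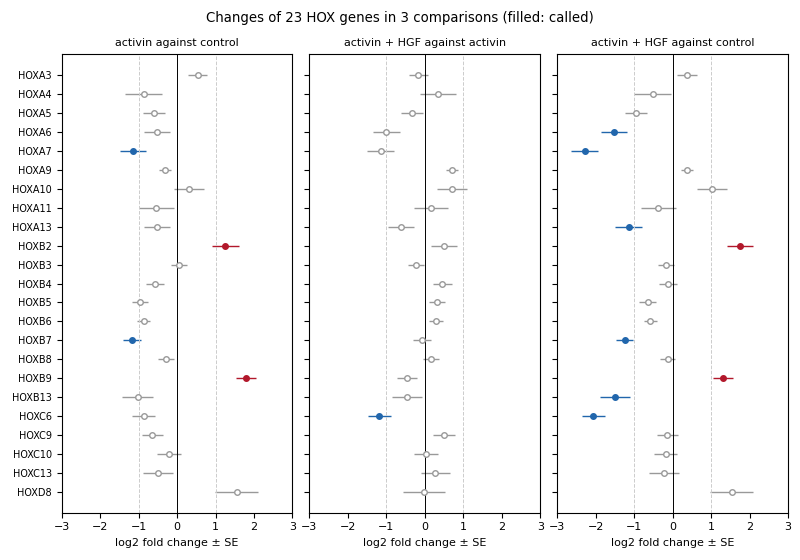
Log2 fold change ± SE of 23 of the HOX genes that were called or had a mean of at least 1 FPKM in a group, in the 3 comparisons; filled points are called, red higher and blue lower, and dashed lines mark a log2 fold change of 1 in either direction. The right panel holds 8 filled points and the middle panel 1.

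The calls were also counted by paralog number, against 10.2% of all genes called lower and 21.5% in either direction after both factors. Among paralogs 6 to 8, HOXA6, HOXA7, HOXB7 and HOXC6, 4 of 8 tested genes, were called lower and none higher, with a median log2 fold change of −0.93. HOXD8, of the same range, went the other way (log2 fold change 1.53, edgeR adjusted p = 0.0594). Without activin + HGF replicate 1 it was called, so that 1 gene of this range was called higher and 4 lower. Among paralogs 1 to 5, 1 of 13 was called, HOXB2, with a median of −0.17. Among paralogs 9 to 13, 1 of 13 was called higher and 2 lower, with a median of −0.18. In activin-treated cells the same ranges had 2 of 8, 1 of 13 and 1 of 13 called, against 11.4% of all genes. Counts of 1 to 3 in 13 genes are near these background shares, and the difference between the ranges was not tested.

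**Figure D4:**
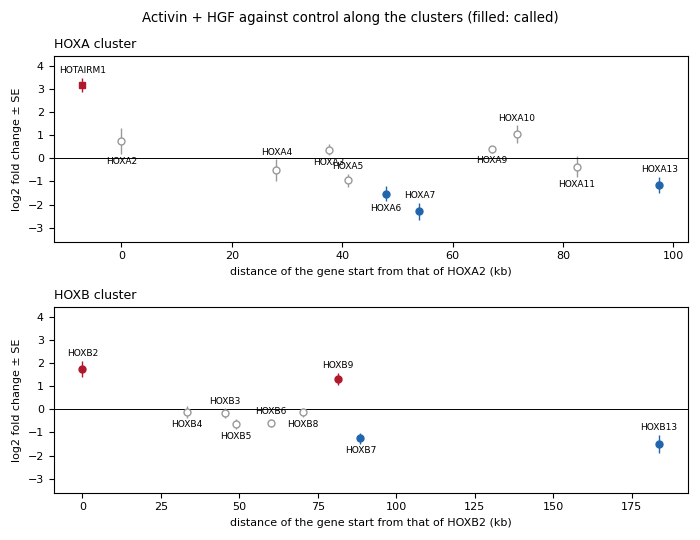
Log2 fold change ± SE of activin + HGF against control for genes of the HOXA and HOXB clusters, placed by the distance in kb from the start of HOXA2 or HOXB2 to the 5′ end of the gene's row; filled points are called and HOTAIRM1 is a square. HOXA6 and HOXA7 lie side by side at 47.9 and 54.0 kb; HOXB7 sits beyond HOXB9 because its row covers it.

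The remaining HOXA genes were called in no comparison of the main fit. HOXA5 had 5.81, 6.72 and 5.77 CPM in control, 4.80, 3.76 and 3.45 in activin-treated and 2.17, 3.29 and 4.02 in activin + HGF-treated libraries, and its log2 fold change against control after both factors was −0.95 (edgeR adjusted p = 0.0283). Every treated library lay below every control library. HOXA5 was called after both factors with library totals, with limma on log2(FPKM + 0.1) and without activin + HGF replicate 3. HOXA10 had 11.6, 19.3 and 11.4, then 10.8, 30.1 and 11.9, then 22.5, 31.1 and 32.6 CPM, and its log2 fold change after both factors was 1.03 (edgeR adjusted p = 0.0681). Its activin replicate 2 lay far above the other two, within the range of the activin + HGF libraries. Without that library HOXA10 was called after HGF and after both factors. DESeq2, the replicate block and the fit of only the groups compared also called it after both factors. HOXA11 ranged from 2.22 to 10.7 CPM within the activin-treated group alone, with 2.22, 10.7 and 5.52 CPM there, 7.89, 9.79 and 9.02 in control and 5.62, 6.63 and 8.45 in activin + HGF-treated libraries. HOXA3 had 3.54, 3.27 and 2.70, then 4.50, 4.10 and 5.23, then 3.47, 4.64 and 4.23 CPM. HOXA4 had 1.72, 2.20 and 2.05, then 0.855, 1.60 and 0.825, then 2.17, 0.625 and 1.37 CPM, with wide spread in the last group. HOXA2 reached at most 1.38 CPM.

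HOXC9, a trunk gene, was the highest HOXC gene in every group. HOXC9 had 7.68, 10.7 and 8.08 CPM in control, 3.61, 6.82 and 6.53 in activin-treated and 8.47, 7.79 and 7.72 in activin + HGF-treated libraries. Activin-treated libraries lay below both other groups, and the log2 fold change with activin was −0.64 (edgeR adjusted p = 0.137). HOXC10 had 4.52, 4.18 and 4.41, then 3.57, 5.32 and 2.48, then 4.48, 3.11 and 3.96 CPM, and the groups overlapped. HOXC4, HOXC5, HOXC8 and HOXC11 had at most 2.31 CPM in any library and were not called in the main fit, and HOXC12 was not tested. After both factors the log2 fold change of HOXC5 was 1.18 (edgeR adjusted p = 0.0505) and that of HOXC4 −1.06 (edgeR adjusted p = 0.0670). Neither gene overlapped control there, and DESeq2 and some other alternatives called them.

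The HOXD cluster was close to silent apart from HOXD8. HOXD8 had 0.882, 3.35 and 3.19 CPM in control, 7.99, 7.17 and 6.60 in activin-treated and 2.53, 7.79 and 11.2 in activin + HGF-treated libraries. Activin-treated libraries lay above all control libraries, but activin + HGF replicate 1 fell among the controls. Its log2 fold change was 1.55 with activin (edgeR adjusted p = 0.0823) and 1.53 with both factors (edgeR adjusted p = 0.0594), so it was not called, and without activin + HGF replicate 1 it was called in both. The other HOXD genes had at most 1.73 CPM. Of the 6 tested HOXD genes, edgeR called 0 in the 3 comparisons, with 1, 2 and 3 at an unadjusted p under 0.05. DESeq2 called HOXD8 with activin, HOXD4 and HOXD11 after HGF and all 3 of these after both factors, whereas limma on log2(FPKM + 0.1) called 0. HOXC12, HOXD1, HOXD12 and HOXD13 did not pass the filter and held 0 to 23 counts per library. HOXD11 had 0 counts in the 3 activin + HGF-treated libraries, where up to 3 counts, or at most 0.0551 CPM, cannot be told from 0.

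HOTAIRM1, a long noncoding RNA at the head end of the HOXA cluster (chr7:27095647-27100265, plus strand), changed more after both factors than any HOX gene called there. It had 1.57, 1.40 and 1.11 CPM in control, 4.07, 3.31 and 3.90 in activin-treated and 16.8, 10.5 and 9.12 in activin + HGF-treated libraries. The 3 groups did not overlap. It rose 2.77-fold with activin (log2 fold change 1.47 ± 0.29 SE, edgeR adjusted p = 0.00652), 3.22-fold from activin to activin + HGF (log2 fold change 1.69 ± 0.29 SE, edgeR adjusted p = 0.00766) and 8.93-fold from control to activin + HGF (log2 fold change 3.16 ± 0.31 SE, edgeR adjusted p = 8.34e-05). Without strand, its reads and those of transcripts on the other strand cannot be told apart.

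Other RNAs made from the clusters were mostly low. Of 24 listed noncoding RNAs 22 had a row and 15 were tested, and the number called higher was 1 with activin, 1 after HGF and 2 against control after both, with none lower. These are 6.67%, 6.67% and 13.3% of the 15, against 11.4%, 8.09% and 21.5% of all genes called. The second was HOXC-AS1, which overlaps HOXC6 and HOXC9 on the opposite strand (log2 fold change 1.78 ± 0.54 SE, edgeR adjusted p = 0.0296). It had 0.604, 1.06 and 0.920 CPM in control, 0.733, 2.59 and 0.639 in activin-treated and 3.56, 2.89 and 2.45 in activin + HGF-treated libraries. Activin replicate 2 lay within the range of the activin + HGF libraries. The HOXC-AS1 call was lost without activin + HGF replicate 1 (edgeR adjusted p = 0.0731). In that fit 1 RNA was called higher and 3 lower after both factors, which is 26.7% of 15, against 3827 of all 22069 genes. Of 13 protein-coding neighbours of the clusters, 11 were tested and 0 called by edgeR in the 3 comparisons, with 4, 2 and 3 at an unadjusted p under 0.05. DESeq2 called 0 in each, limma on log2(FPKM + 0.1) called 1 after both factors, and edgeR called 1 higher with activin when activin replicate 2 was left out. That last fit called 2234 of all 22112 genes.

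The TALE list held PBX, MEIS and PKNOX genes and also TGIF1 and TGIF2, and 11 genes were tested. Of the 11, 1 was called lower with activin, 2 lower after both factors and none higher. These are 9.09% and 18.2%, against 11.4% and 21.5% of all genes called. MEIS2, a cofactor that binds DNA together with HOX proteins, had 9.34, 8.83 and 8.70 CPM in control, 4.25, 6.37 and 5.12 in activin-treated and 3.58, 2.95 and 3.48 in activin + HGF-treated libraries. The 3 groups did not overlap, and it fell after both factors (log2 fold change −1.42 ± 0.23 SE, edgeR adjusted p = 0.00153). After HGF edgeR called 0 TALE genes (4 at an unadjusted p under 0.05, 0 by DESeq2 and 1 by limma on log2(FPKM + 0.1)), against 8.09% of all genes called. Without activin + HGF replicate 1, 1 TALE gene was called higher and 3 lower after both factors, and without activin replicate 2, 1 was called lower after HGF. These are 36.4%, against 3827 of 22069 genes in the first fit, and 9.09%, against 2418 of 22112 genes in the second.

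Of the CDX and retinoic acid genes, 10 were tested and 1 was called higher with activin, 0 after HGF and 1 higher after both factors by edgeR, with none lower. These are 10%, 0% and 10%, against 11.4%, 8.09% and 21.5% of all genes called. After HGF 2 had an unadjusted p under 0.05, and DESeq2 and limma called 0. RARA, a retinoic acid receptor, was 2.18-fold higher after both factors (log2 fold change 1.12 ± 0.18 SE, edgeR adjusted p = 0.00145). ALDH1A1, which makes retinoic acid, was the call with activin (log2 fold change 3.53 ± 1.08 SE, edgeR adjusted p = 0.0468). It was a low gene, at 0.0653, 0 and 0.0994 CPM in control and 0.950, 0.304 and 0.732 in activin-treated libraries. ALDH1A3, of the same list, was far higher, at 318, 290 and 327 CPM in control and 233, 228 and 234 in activin-treated libraries. The log2 fold change of ALDH1A3 was −0.43 with activin (edgeR adjusted p = 0.0945) and 0.75 after HGF (edgeR adjusted p = 0.0166), without a call. CDX2, an intestinal regulator of HOX genes, had 13.4, 17.0 and 15.4 CPM in control, 14.1, 18.5 and 11.8 in activin-treated and 8.41, 23.1 and 25.1 in activin + HGF-treated libraries. Its groups overlapped, and its log2 fold changes were −0.05, 0.35 and 0.30 in the order of the comparisons (edgeR adjusted p = 0.954, 0.552 and 0.558). CDX1 had 0 counts in all libraries except activin replicate 3, which had 19.

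Genes that keep HOX clusters silent or active were called at shares of 0% to 27.3%. Of 11 Polycomb genes tested, 1 was called higher and 0 lower with activin, 1 higher and 1 lower after HGF, and 1 higher and 2 lower after both factors. These are 9.09%, 18.2% and 27.3%, against 11.4%, 8.09% and 21.5% of all genes called. EZH2, the methyltransferase of Polycomb complex PRC2, had 78.4, 67.8 and 72.7 CPM in control, 69.5, 46.7 and 78.5 in activin-treated and 26.3, 30.4 and 27.9 in activin + HGF-treated libraries. All activin + HGF libraries lay below all others, and EZH2 fell after HGF (log2 fold change −1.20 ± 0.20 SE, edgeR adjusted p = 0.00751). SUZ12, another PRC2 subunit, was lower after both factors (log2 fold change −1.07 ± 0.18 SE, edgeR adjusted p = 0.00155). CBX8, a PRC1 subunit, rose after HGF (log2 fold change 1.03 ± 0.23 SE, edgeR adjusted p = 0.0202). Without activin + HGF replicate 1, no Polycomb gene was called higher after HGF and 1 was called lower after both factors. That fit called 1079 of all 22069 genes after HGF and 3827 after both factors.

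The last list held MLL-type and H3K27 demethylase genes and also CTCF and DOT1L, and 10 genes were tested. KDM6B was called higher with activin, and KDM6B was higher and KMT2A lower after both factors. After HGF edgeR called 0 (2 at an unadjusted p under 0.05, and KMT2A by DESeq2). The shares called with activin, after HGF and after both factors are 10%, 0% and 20%, against 11.4%, 8.09% and 21.5% of all genes called. KDM6B, which removes the Polycomb mark, had 36.0, 45.7 and 37.4 CPM in control, 117, 159 and 86.0 in activin-treated and 104, 122 and 133 in activin + HGF-treated libraries. Every treated library lay above every control library (log2 fold change with activin 1.60 ± 0.23 SE, edgeR adjusted p = 0.0013). KMT2A, which encodes MLL1, was 2.65-fold lower after both factors (log2 fold change −1.41 ± 0.32 SE, edgeR adjusted p = 0.00812). Limma on log2(FPKM + 0.1) called 1 of these genes after HGF, and edgeR called 1 lower when activin replicate 2 was left out. That edgeR fit called 2418 of all 22112 genes after HGF. In each of these lists the calls were at most 3, and whether they bear on the HOX genes was not tested.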

How the data were processed

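RNA was depleted of ribosomal RNA before library construction and sequenced. Per the labels, cutadapt 1.9, HISAT2 2.0.4 and StringTie 1.3.4d were among the authors' processing tools. The counting program, its use of strand and the genome build are not given in the sources used here. The authors deposited raw counts per gene, and FPKM values of the same genes, normalized by the authors to depth and length. Counts were tested with edgeR 4.0.16 in R 4.3.3 (filterByExpr, TMM, glmQLFit, glmQLFTest) on 9 libraries, with a mean per group, over 20988 genes. Calls needed an adjusted p (Benjamini-Hochberg) below 0.05 and a log2 fold change of 1 or more in size. The test was tried on simulated counts first. CPM is TMM-scaled, and FPKM was used between genes. Depth was 57453977 to 77016167 counts per library, and with 3 libraries against 3 the smallest exact two-sided permutation p is 0.1.

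Groups and replicate numbers follow the titles. Every HOX gene was counted, and those called in a comparison or with a mean of at least 1 FPKM in a group were named with values per library. Of other lists, counts and at most 4 called genes with the smallest adjusted p per comparison were named, besides CDX1, CDX2, ALDH1A3 and cluster RNAs. A few genes within these criteria are left unreported here. The HOX members and the lists were chosen with earlier results of these data known. HOTAIRM1, and the cell markers, were described after their values were seen. Alternatives were other scalings, filters, DESeq2 1.42.0, limma 3.58.1 on log2(FPKM + 0.1) and log2(FPKM + 1), a replicate block, a fit of only the groups compared, adjusted p alone and each library left out. Python 3.11.15, pandas 2.3.3, numpy 2.4.6 and matplotlib 3.10.9 were used.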

Additional observations from a re-analysis of the deposited data

How the results depend on the processing

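The 3 libraries per group limit the precision. The 16 called changes of the 8 HOX genes and HOTAIRM1 kept their direction in each of 18 alternatives, and 253 of 288 alternatives kept the call. Calls held in every one of these alternatives for HOXB9 with activin and for HOXA7, HOXB7, HOXB13, HOXC6 and HOTAIRM1 after both factors. The cause of the changes below was not tested.

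With activin, 4 HOX genes were called, 2 without a filter on low counts, and 1 to 6 when one library was left out (2 without control replicate 1 or 2, 1 without activin replicate 1). After HGF, 1 was called, and the count was 2 with RLE size factors, 3 with library totals, 2 with a mean FPKM filter of 0.5, 5 with DESeq2, 3 with limma on log2(FPKM + 0.1), 2 on adjusted p alone, 0 with only the groups compared (5 at an unadjusted p under 0.05) and 0 to 3 with one library left out. It was 0 without control replicate 3, activin replicate 1, activin replicate 3 or activin + HGF replicate 3, and 3 without activin replicate 2. After both factors, 8 were called, 14 with DESeq2, 4 with limma on log2(FPKM + 1), and 7 to 10 with one library left out. The calls over all genes moved as well. With activin, the main fit called 2394 of 20988, the fit without the filter 2157 of 33861 and the leave-out fits 1688 to 2651. After HGF the main fit called 1697, or 2698 on adjusted p alone, and DESeq2 called 2519. RLE size factors gave 1721 and library totals 2124. The mean FPKM filter gave 1522 of 15670 and limma on log2(FPKM + 0.1) 1945 of 15670. The fit of the groups compared called 677 of 19594 and the leave-out fits 606 to 2418. After both factors the main fit called 4519, DESeq2 5124, limma on log2(FPKM + 1) 2239 of 15670 and the leave-out fits 3537 to 4699. The leave-out fits tested 21926 to 22191 genes. HOXB7 after HGF had a log2 fold change of −0.07, from −0.30 (without activin replicate 1) to 0.15 (without activin replicate 2) when one library was left out, and 0.09 without activin + HGF replicate 1. Library totals moved the median of all genes by −0.34 after HGF and −0.27 after both factors on the log2 scale.

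With a replicate block, which treats equal numbers as a pairing, 5, 2 and 10 HOX genes were called in the 3 comparisons, in the order given. Over all 20988 genes that fit called 2218, 1366 and 4222 in the same order. The numbers do not pair the libraries. Correlations of same-numbered deviations were −0.10 to 0.20 in 9 pairs, and in 7 of 18 cases a library correlated best with its own number in another group.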
